A study of Mus musculus with 53 samples.

Results

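Tbr1, Neurod6, Mef2c, Cux2, Rorb, Fezf2, Bcl11b, Slc17a7 and Slc17a6 are 9 genes used to identify the excitatory neurons of the cerebral cortex. They were chosen by symbol, each matched to 1 Ensembl identifier, from the 54393 gene identifiers counted in both regions of the study, the central nucleus of the amygdala (CeA) and the medial prefrontal cortex (mPFC). All 9 passed the filter on low counts in every fit, and none was at 0 in any of the 53 libraries. Tbr1, Neurod6, Mef2c, Cux2, Rorb and Fezf2 were lower in CeA than in mPFC in every condition, while Slc17a6 and Bcl11b were higher. Neither the PLX5622 diet nor ethanol dependence changed any of the 9 past the threshold within a region.

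Projection neurons of the cortex release glutamate, derive from the pallium and are told apart by transcription factors that are set up layer by layer. Tbr1 is a T-box factor of deep-layer neurons, Neurod6 a basic helix-loop-helix factor of pallial projection neurons and Mef2c an activity-regulated factor that acts on synapses. Cux2 marks upper-layer and Rorb layer IV neurons, Fezf2 specifies subcerebral projection neurons of layer V, and Bcl11b (CTIP2) acts downstream of Fezf2 there and is also a factor of the striatal medium spiny neurons. Slc17a7 and Slc17a6 encode VGLUT1 and VGLUT2, which load glutamate into synaptic vesicles. VGLUT1 prevails in the cortex and the basolateral amygdala, VGLUT2 in the thalamus, the hypothalamus and the medial amygdala. The CeA is made mostly of GABA neurons of subpallial origin and borders on the basolateral amygdala and the striatum.

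The mice were of the C57BL6/J strain and of postnatal day 119. They ate chow with PLX5622 (1200 ppm), which blocks CSF1R, the receptor that keeps microglia alive, or control chow. By label PLX5622 was given for 28 days before the ethanol phase, and the labels do not give the days on it during that phase. That phase combined chronic intermittent exposure to ethanol with drinking from a choice of bottles (15% ethanol) for 4 weeks. Tissue was collected 24 hours later. By label the mice were dependent or non-dependent. The labels of both give drinking of 15% ethanol, 4 weeks of ethanol and 24 hours after the last ethanol. How the ethanol exposure of non-dependent mice differed from that of dependent mice was not given in the sources used here. Libraries of CeA came from 4 PLX5622 dependent, 5 control dependent, 4 PLX5622 non-dependent and 6 control non-dependent mice, 1 library each. The mPFC groups held 9 PLX5622 dependent, 9 control dependent, 9 PLX5622 non-dependent and 7 control non-dependent mice.

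Levels are counts per 1e+06 counts in genes (CPM), from libraries biased to the 3' ends of RNA of whole tissue. Counts in genes ran from 1062443 to 1968971 per CeA library and from 1531574 to 2607438 per mPFC library. CeA came from punches of 300 µm frozen slices and mPFC from fresh dissection, and the regions were read on different instruments and counted with different annotation releases, so region, dissection, instrument and annotation cannot be told apart. The 9 identifiers carried the same version in both releases. Summed microglia genes were at 33.9 to 57.9 CPM in PLX5622 dependent and 36.0 to 64.9 CPM in PLX5622 non-dependent CeA, against 433 to 577 CPM in control dependent and 363 to 505 CPM in control non-dependent CeA. In mPFC they were at 34.2 to 115.9 CPM in PLX5622 dependent and 42.6 to 71.0 CPM in PLX5622 non-dependent mice, against 389 to 487 CPM in control dependent and 406 to 474 CPM in control non-dependent mice. In 12 libraries, 6 of each region and all from dependent mice, over 1000 counts were spike-in RNA. The mPFC library of mouse 38 (PLX5622 dependent, one of these 12) stood apart from its group in Slc17a7 and Cux2. The CeA library of mouse 15 (control non-dependent) did so in Slc17a6. Some of the results that turn on these libraries are also given without them. In bulk tissue, fewer cells of a type and less RNA per cell cannot be told apart.

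The sequences below show how alike the coding sequences of the transporter genes are. How well reads biased to 3' ends tell the genes apart was not tested. Slc17a7 lies at chr7:45163949-45176142 and Slc17a6 at chr7:51622006-51671119 (GRCm38, both on the plus strand). Their coding sequences in GENCODE M21 transcripts were 72.7% identical over 1671 aligned bases, and the longest run of identical bases, in capitals with 1 base on either side, was 21 bases long. In Slc17a7 it lies in exon 2 of 13 (chr7:45168895-45168917, coding bases 243 to 265), and in Slc17a6 in exon 2 of 12 (chr7:51625461-51625483, coding bases 267 to 289).
Slc17a7: cAACCTGGGCGTGGCCATCGTGt
Slc17a6: tAACCTGGGCGTGGCCATCGTGg
No word of 30 bases was common to the transcripts of these genes. Of the 30-base words of each of the 9 genes, between 0 and 0.771% also occurred in another gene. Among genes that overlap one of the 9, counts were found only for Gm15637, antisense to Cux2, with 2 counts over all CeA libraries and 6 over all mPFC libraries. Use of strand in counting was not given in the sources used here.

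CeA was set against mPFC in each of the 4 conditions. Whether groups overlap is given for each of the 9 genes, but the share of all genes without overlap was not taken. Non-overlap therefore does not set the 9 genes apart. In PLX5622 dependent mice 6 of the 9 genes were lower and 2 higher in CeA at an adjusted p under 0.05, where 40.2% of all genes tested were called, 20.1% lower and 20% higher. The counts were 6 lower and 2 higher in control dependent mice (46.6% of all genes called, 23.5% lower and 23.1% higher), 6 lower and 3 higher in PLX5622 non-dependent mice (43.6%, 22.2% lower and 21.4% higher), and 6 lower and 2 higher in control non-dependent mice (46.4%, 23.2% lower and 23.2% higher). The median log2 fold change of the 9 was -0.86 in PLX5622 dependent, -1.02 in control dependent, -1.03 in PLX5622 non-dependent and -1.002 in control non-dependent mice, where that of all genes tested was between -0.0084 and 0.0014.

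**Figure D1:**
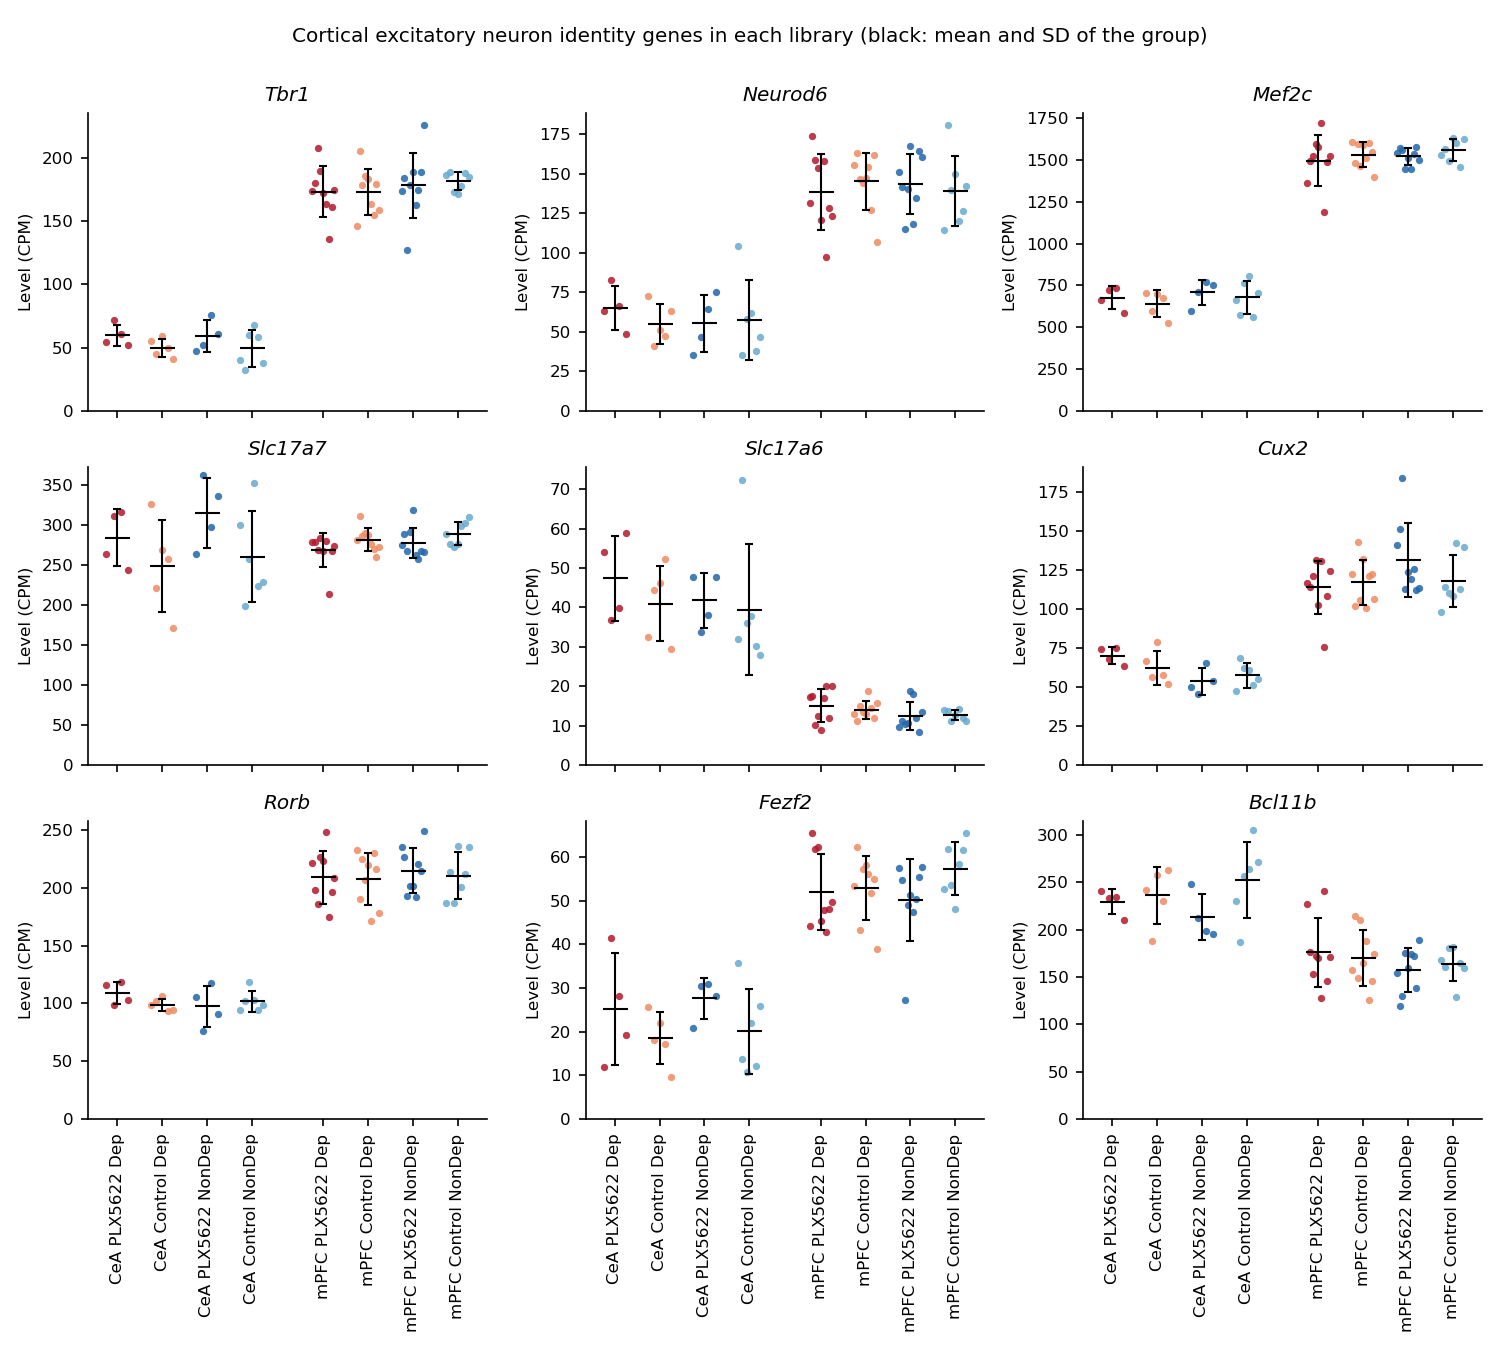
Level in CPM of each of the 9 genes in every library (points; black marks, mean ± SD) of the 8 groups, CeA left of mPFC. All CeA libraries lay below all mPFC libraries for Tbr1, Mef2c and Rorb and above them for Slc17a6, while groups of the same region overlapped. The share of all genes separated in this way was not taken.

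Tbr1, the deep-layer factor, had the largest fold change of the 9 in control non-dependent mice. Tbr1 had 32.2 to 68.2 (median 49.2) CPM in the 6 CeA libraries of control non-dependent mice and 172 to 189 (median 185) CPM in their 7 mPFC libraries. The groups did not overlap. The log2 fold change of CeA over mPFC was -1.82 ± 0.13 (SE), 0.283 times the mPFC level in CeA, with an adjusted p of 2.51e-17. Tbr1 in PLX5622 dependent mice had 54.8, 71.5, 60.6 and 52.5 CPM in CeA and 136.1 to 208 (median 174) CPM in mPFC, a log2 fold change of -1.47 ± 0.14 (adjusted p = 2.20e-12). Tbr1 in control dependent mice had 55.1, 45.0, 59.1, 49.7 and 41.1 CPM in CeA and 146.3 to 205 (median 179) CPM in mPFC, a log2 fold change of -1.74 ± 0.13 (adjusted p = 3.15e-16). Tbr1 in PLX5622 non-dependent mice had 47.6, 51.9, 76.1 and 60.9 CPM in CeA and 127 to 226 (median 178) CPM in mPFC, a log2 fold change of -1.51 ± 0.14 (adjusted p = 2.84e-13). No CeA library of any condition reached the lowest mPFC library, and Tbr1 averaged 53.8 ± 11.5 CPM over the 19 CeA libraries and 176 ± 19.0 CPM over the 34 mPFC libraries (SD).

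Neurod6, the pallial projection neuron factor, was also lower in CeA. Neurod6 had 35.4 to 104.2 (median 52.5) CPM in the 6 CeA libraries of control non-dependent mice and 114.7 to 181 (median 139.6) CPM in their 7 mPFC libraries. On the log2 scale the difference was -1.24 ± 0.18 (SE), 0.423 times the mPFC level in CeA, with an adjusted p of 7.82e-08. The groups did not overlap in this or any other condition. Neurod6 in PLX5622 dependent mice had 63.5, 82.8, 66.4 and 49.0 CPM in CeA and 97.4 to 174 (median 131.6) CPM in mPFC, a log2 fold change of -1.02 ± 0.20 (adjusted p = 3.46e-05). Neurod6 in control dependent mice had 73.0, 40.8, 51.3, 47.8 and 63.0 CPM in CeA and 107.2 to 163 (median 147.2) CPM in mPFC, a log2 fold change of -1.34 ± 0.18 (adjusted p = 2.14e-08). Neurod6 in PLX5622 non-dependent mice had 35.4, 46.7, 64.5 and 75.3 CPM in CeA and 115.3 to 167 (median 141.7) CPM in mPFC, a log2 fold change of -1.29 ± 0.20 (adjusted p = 3.94e-07). Over all libraries 1 CeA library, of a control non-dependent mouse, reached into the mPFC range, and Neurod6 averaged 58.1 ± 17.7 CPM over the 19 CeA libraries and 141.9 ± 20.2 CPM over the 34 mPFC libraries (SD).

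Mef2c had the smallest standard error of the 9 and separated the regions fully. Mef2c had 562 to 808 (median 683) CPM in the 6 CeA libraries of control non-dependent mice and 1459 to 1631 (median 1567) CPM in their 7 mPFC libraries. This was a log2 fold change of -1.16 ± 0.074 (SE), 0.447 times the mPFC level in CeA, with an adjusted p of 4.29e-21. Every CeA library was below every mPFC library. Mef2c in PLX5622 dependent mice had 664, 725, 737 and 584 CPM in CeA and 1187 to 1721 (median 1521) CPM in mPFC, a log2 fold change of -1.06 ± 0.082 (adjusted p = 4.36e-17). Mef2c in control dependent mice had 708, 600.1, 701, 678 and 524 CPM in CeA and 1397 to 1607 (median 1547) CPM in mPFC, a log2 fold change of -1.20 ± 0.076 (adjusted p = 3.80e-21). Mef2c in PLX5622 non-dependent mice had 598, 714, 769 and 752 CPM in CeA and 1446 to 1577 (median 1533) CPM in mPFC, a log2 fold change of -1.03 ± 0.082 (adjusted p = 8.73e-17). The fold change of Mef2c thus lay between -1.20 and -1.03 in the 4 conditions, and its level averaged 675 ± 80.7 CPM over the 19 CeA libraries and 1525 ± 93.1 CPM over the 34 mPFC libraries (SD).

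Of the markers of upper and middle layers, Cux2 and Rorb were both lower in CeA. Cux2 had 47.1 to 68.4 (median 58.0) CPM in the 6 CeA libraries of control non-dependent mice and 97.8 to 141.9 (median 112.8) CPM in their 7 mPFC libraries. CeA over mPFC gave a log2 fold change of -0.996 ± 0.13 (SE), 0.502 times the mPFC level in CeA, with an adjusted p of 1.66e-08. The groups did not overlap in any of the 4 conditions. Cux2 in PLX5622 dependent mice had 74.1, 67.8, 74.7 and 63.2 CPM in CeA and 75.6 to 131 (median 116.5) CPM in mPFC, a log2 fold change of -0.62 ± 0.15 (adjusted p = 0.000546). Cux2 in control dependent mice had 66.8, 56.1, 79.0, 57.3 and 51.8 CPM in CeA and 100.8 to 142.4 (median 120.8) CPM in mPFC, a log2 fold change of -0.87 ± 0.13 (adjusted p = 3.55e-07). Cux2 in PLX5622 non-dependent mice had 49.8, 45.4, 65.2 and 53.7 CPM in CeA and 112.3 to 184 (median 123.4) CPM in mPFC, a log2 fold change of -1.22 ± 0.15 (adjusted p = 1.61e-09). The mPFC library of mouse 38 was the lowest of all mPFC libraries and the only one inside the CeA range over all libraries. Without that library the PLX5622 dependent log2 fold change of Cux2 was -0.68 (adjusted p = 4.39e-05).

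Rorb, the layer IV factor, varied least between libraries of CeA. Rorb had 94.3 to 118.3 (median 100.3) CPM in the 6 CeA libraries of control non-dependent mice and 187 to 236 (median 212) CPM in their 7 mPFC libraries. Its log2 fold change was -1.002 ± 0.090 (SE), 0.499 times the mPFC level in CeA, with an adjusted p of 1.32e-14. Every CeA library was below every mPFC library. Rorb in PLX5622 dependent mice had 115.8, 98.8, 118.6 and 102.9 CPM in CeA and 175 to 248 (median 209) CPM in mPFC, a log2 fold change of -0.86 ± 0.10 (adjusted p = 1.82e-10). Rorb in control dependent mice had 98.6, 101.8, 106.1, 93.6 and 94.5 CPM in CeA and 172 to 232 (median 217) CPM in mPFC, a log2 fold change of -1.02 ± 0.092 (adjusted p = 1.66e-14). Rorb in PLX5622 non-dependent mice had 105.4, 76.5, 117.4 and 91.02 CPM in CeA and 192 to 249 (median 215) CPM in mPFC, a log2 fold change of -1.07 ± 0.10 (adjusted p = 8.64e-14). Over all libraries Rorb averaged 101.7 ± 10.7 CPM over the 19 CeA libraries and 211 ± 20.7 CPM over the 34 mPFC libraries (SD).

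Fezf2 and Bcl11b, both layer V factors, differed in opposite directions. Fezf2 had 10.9 to 35.7 (median 17.8) CPM in the 6 CeA libraries of control non-dependent mice and 48.0 to 65.4 (median 58.3) CPM in their 7 mPFC libraries. For Fezf2 this was a log2 fold change of -1.50 ± 0.21 (SE), 0.354 times the mPFC level in CeA, with an adjusted p of 3.46e-08. The groups did not overlap. Fezf2 in PLX5622 dependent mice had 11.8, 41.4, 28.2 and 19.2 CPM in CeA and 42.8 to 65.4 (median 48.0) CPM in mPFC, a log2 fold change of -1.05 ± 0.23 (adjusted p = 0.000220). Fezf2 in control dependent mice had 25.6, 18.0, 22.1, 17.2 and 9.65 CPM in CeA and 39.0 to 62.4 (median 54.8) CPM in mPFC, a log2 fold change of -1.51 ± 0.21 (adjusted p = 8.49e-08). Fezf2 in PLX5622 non-dependent mice had 20.9, 30.5, 31.0 and 28.2 CPM in CeA and 27.2 to 57.6 (median 51.3) CPM in mPFC, a log2 fold change of -0.78 ± 0.21 (adjusted p = 0.00250). The PLX5622 non-dependent groups overlapped, since 3 of 4 CeA libraries lay above the lowest mPFC library, that of mouse 21, and the fold change was smallest there.

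Bcl11b had 187 to 306 (median 260.2) CPM in the 6 CeA libraries of control non-dependent mice and 128 to 181 (median 165) CPM in their 7 mPFC libraries. These groups did not overlap, with CeA above. In log2 the difference was 0.67 ± 0.12 (SE), 1.59 times the mPFC level in CeA, with an adjusted p of 1.33e-05. Bcl11b in PLX5622 dependent mice had 241, 233, 235 and 210.0 CPM in CeA and 128 to 241 (median 172) CPM in mPFC, a log2 fold change of 0.46 ± 0.13 (adjusted p = 0.00479). Bcl11b in control dependent mice had 242, 188, 258, 229.9 and 264 CPM in CeA and 126 to 214 (median 165) CPM in mPFC, a log2 fold change of 0.54 ± 0.12 (adjusted p = 0.000297). Bcl11b in PLX5622 non-dependent mice had 248, 212, 199 and 195 CPM in CeA and 119.6 to 189 (median 160.0) CPM in mPFC, a log2 fold change of 0.51 ± 0.13 (adjusted p = 0.00174). In both dependent conditions the groups overlapped, and the calls were lost without the libraries holding spike-in RNA, at a log2 fold change of 0.28 (adjusted p = 0.474) in PLX5622 dependent and 0.38 (adjusted p = 0.109) in control dependent mice. Those fits keep 1 PLX5622 dependent and 2 control dependent CeA libraries.

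Beside the Bcl11b result, the summed level of 12 genes of striatal medium spiny neurons was 872 to 3732 CPM in CeA and 819.7 to 2406 CPM in mPFC. In control non-dependent mice 10 of the 12 were higher in CeA and 1 was lower, with a median log2 fold change of 2.14. The part of striatal tissue in the Bcl11b difference was not tested.

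The glutamate transporters differed from each other. Slc17a6 had 28.0 to 72.4 (median 34.0) CPM in the 6 CeA libraries of control non-dependent mice and 11.2 to 14.3 (median 12.8) CPM in their 7 mPFC libraries. Slc17a6 thus had a log2 fold change of 1.64 ± 0.18 (SE), 3.11 times the mPFC level in CeA, with an adjusted p of 2.91e-11. CeA libraries were all above the mPFC libraries. Slc17a6 in PLX5622 dependent mice had 54.2, 36.7, 39.8 and 58.9 CPM in CeA and 8.99 to 20.2 (median 17.1) CPM in mPFC, a log2 fold change of 1.75 ± 0.18 (adjusted p = 4.52e-12). Slc17a6 in control dependent mice had 32.6, 44.3, 46.3, 52.2 and 29.5 CPM in CeA and 11.1 to 18.7 (median 13.6) CPM in mPFC, a log2 fold change of 1.58 ± 0.17 (adjusted p = 1.60e-11). Slc17a6 in PLX5622 non-dependent mice had 47.6, 33.7, 38.1 and 47.8 CPM in CeA and 8.49 to 18.7 (median 11.1) CPM in mPFC, a log2 fold change of 1.79 ± 0.19 (adjusted p = 5.96e-12). The highest of all 53 libraries was the CeA library of mouse 15, and without it the control non-dependent log2 fold change was 1.41 (adjusted p = 5.23e-11). Summed genes of the medial amygdala and hypothalamus, where VGLUT2 prevails over VGLUT1, were at 0.648 to 22.5 CPM in CeA and 0 to 1.12 CPM in mPFC. Among these genes, Sim1 and Ucn3 were each at 0 in 33 of the 34 mPFC libraries. Their part in the Slc17a6 difference was not tested.

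Slc17a7, the transporter of cortical neurons, missed the threshold in 3 of the 4 conditions. Slc17a7 had 198 to 352 (median 243) CPM in the 6 CeA libraries of control non-dependent mice and 272 to 309.6 (median 289) CPM in their 7 mPFC libraries. Of the 6 CeA libraries, 4 were below the mPFC range and 1 was above it. The log2 fold change was -0.12 ± 0.10 (SE), 0.923 times the mPFC level in CeA, with an adjusted p of 0.348 and a 95% interval of -0.31 to 0.076. Slc17a7 in PLX5622 dependent mice had 264, 311, 316 and 243 CPM in CeA and 213 to 284 (median 274) CPM in mPFC, a log2 fold change of 0.16 ± 0.11 (adjusted p = 0.247). Slc17a7 in control dependent mice had 326, 221, 268, 257 and 171 CPM in CeA and 259.9 to 310.3 (median 281) CPM in mPFC, a log2 fold change of -0.13 ± 0.10 (adjusted p = 0.291). Slc17a7 in PLX5622 non-dependent mice had 263, 362, 297 and 335 CPM in CeA and 258 to 319 (median 268) CPM in mPFC, a log2 fold change of 0.26 ± 0.10 (adjusted p = 0.0407). The 95% intervals were -0.051 to 0.37 in PLX5622 dependent and -0.33 to 0.063 in control dependent mice, and none of the 3 intervals reaches the log2 difference of Rorb. The call in PLX5622 non-dependent mice, where 2 of 4 CeA libraries lay above the mPFC range, was lost in 5 of 27 alternatives. These were no filter on low counts (log2 fold change 0.22, adjusted p = 0.144), mouse as a fixed block (0.23, adjusted p = 0.111), and leaving out the CeA library of mouse 23 (0.19, adjusted p = 0.195), 46 (0.28, adjusted p = 0.0554) or 47 (0.22, adjusted p = 0.134). Without the CeA library of mouse 1, Slc17a7 was called lower in control dependent mice (-0.25, adjusted p = 0.0349).

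Beside the Slc17a7 values stand those of the basolateral amygdala genes Rspo2, Lypd1 and Etv1, which together had 329 to 927 CPM in CeA and 147.8 to 205 CPM in mPFC. Most of this was Lypd1, at 496 ± 124.3 CPM in CeA and 58.9 ± 9.34 CPM in mPFC (SD). Rspo2 ran the other way, at 25.0 ± 7.60 CPM in CeA and 42.9 ± 6.39 CPM in mPFC. Their part in the Slc17a7 levels was not tested.

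VGLUT2 transcripts made up 13.6 ± 4.45% of the summed CPM of Slc17a6 and Slc17a7 in CeA and 4.69 ± 1.20% in mPFC (SD). The exons of both genes are of nearly equal length, 5.399 and 5.392 kb. Slc17a8, the VGLUT3 gene, was at 3.60 ± 2.05 CPM in CeA and 2.20 ± 1.06 CPM in mPFC and did not pass the filter. On the side of GABA, the vesicular carrier gene Slc32a1 had a log2 fold change of 1.34 ± 0.16 in control non-dependent mice (adjusted p = 6.66e-10). The gene of the synthesizing enzyme GAD65, Gad2, had 1.22 ± 0.16 (adjusted p = 8.25e-09), and that of GAD67, Gad1, 0.15 ± 0.16 (adjusted p = 0.477).

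**Figure D2:**
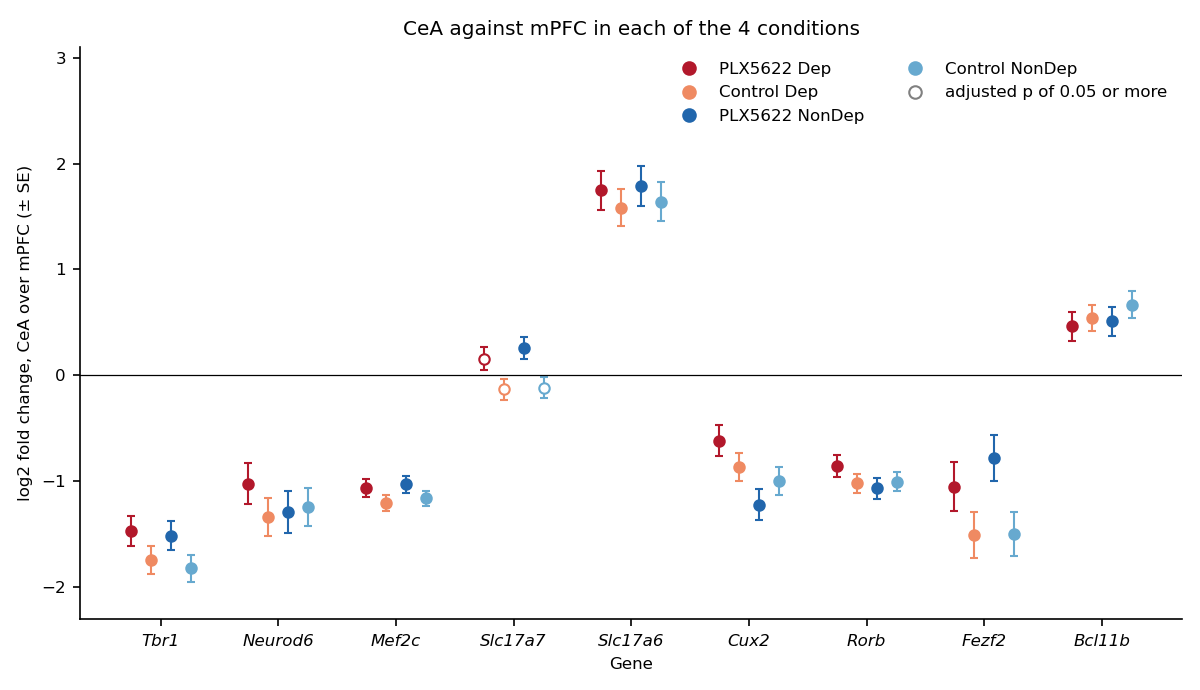
Log2 fold change of CeA over mPFC (± SE) of the 9 genes in the 4 conditions, where open points have an adjusted p of 0.05 or more. Tbr1, Neurod6, Mef2c, Cux2, Rorb and Fezf2 lie below 0 and Slc17a6 and Bcl11b above 0 in every condition. Slc17a7 lies above 0 with PLX5622 and below 0 with control diet, past the threshold in PLX5622 non-dependent mice only.

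Levels of different genes are compared per kb of exon, with the limit that reads biased to 3' ends do not scale with length. In CeA the order of the mean CPM per kb began with 50.7 ± 9.81 for Slc17a7 and 43.0 ± 5.13 for Mef2c (SD, 19 libraries). Bcl11b at 29.0 ± 3.88 and Neurod6 at 27.0 ± 8.25 CPM per kb followed. Tbr1 had 9.81 ± 2.10, Rorb 9.18 ± 0.962, Slc17a6 7.78 ± 2.14, Fezf2 7.32 ± 2.91 and Cux2 6.00 ± 0.966 CPM per kb. Within each of these 3 sets the ranges of mean ± SD of neighbours in the order overlapped, and between the sets they did not. In mPFC Mef2c led with 97.05 ± 5.93 CPM per kb, before Neurod6 with 66.0 ± 9.38, Slc17a7 with 51.6 ± 3.45 and Tbr1 with 32.1 ± 3.47 (SD, 34 libraries). Bcl11b with 20.6 ± 3.44, Rorb with 19.0 ± 1.87 and Fezf2 with 17.3 ± 2.67 CPM per kb were not separated beyond their spread. Cux2 with 11.9 ± 1.88 and Slc17a6 with 2.52 ± 0.593 CPM per kb came last.

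Among 30 other genes of cortical projection neurons, 28 were tested and 14 were called in all 4 comparisons of CeA with mPFC, 10 lower and 4 higher in CeA. Of all genes tested, 27.2% were called in all 4, 13.9% lower and 13.3% higher in each. In control non-dependent mice those lower in CeA included Deptor, an mTOR-binding protein gene (-1.39 ± 0.12), Lmo4 (-1.29 ± 0.10) and Pou3f1 (-1.05 ± 0.17), as log2 fold changes ± SE. Higher were Nxph4 (3.06 ± 0.40), Otof, the otoferlin gene (2.10 ± 0.17), Ntsr1, a neurotensin receptor gene (0.98 ± 0.23), and Camk2a, a kinase of excitatory synapses that GABA neurons of the forebrain also express (0.30 ± 0.077). The median of the 28 was -0.26, against -1.002 for the 9 genes.

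The punches were checked against markers of their own region. Of 11 genes of central amygdala and subpallial neurons, 7 were higher and 0 lower in CeA of control non-dependent mice, with summed levels of 854 to 1275 CPM in CeA and 611 to 1242 CPM in mPFC over all libraries. All 8 oligodendrocyte genes were higher in CeA, at 1713 to 4171 CPM against 1041 to 2149 CPM in mPFC. How much of the differences of the 9 genes goes with this makeup was not tested.

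PLX5622 was set against control diet within each region and history. In CeA none of the 9 genes was called in dependent mice, where 0.401% of all genes were, or in non-dependent mice (0.938%). In mPFC none was called in dependent (0.908% of all genes) or non-dependent mice (0.624%). At an unadjusted p under 0.05, 0 of the 9 genes passed in any of these 4 comparisons. Of all genes, 5.44% did so in dependent CeA, 9.07% in non-dependent CeA, 6.3% in dependent mPFC and 5.38% in non-dependent mPFC. DESeq2 called none of the 9 either.

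Slc17a7 had 263, 362, 297 and 335 CPM in PLX5622 non-dependent CeA and 198 to 352 (median 243) CPM in control non-dependent CeA, a log2 fold change of 0.31 ± 0.17 (SE, adjusted p = 0.658). It had 264, 311, 316 and 243 CPM in PLX5622 dependent and 326, 221, 268, 257 and 171 CPM in control dependent CeA (0.21 ± 0.18, adjusted p = 0.974). Both pairs of groups overlapped. For Fezf2 the values were 20.9, 30.5, 31.0 and 28.2 CPM in PLX5622 and 10.9 to 35.7 (median 17.8) CPM in control non-dependent CeA (0.52 ± 0.36, adjusted p = 0.729). In dependent mice they were 11.8, 41.4, 28.2 and 19.2 CPM with PLX5622 and 25.6, 18.0, 22.1, 17.2 and 9.65 CPM with control diet (0.43 ± 0.40, adjusted p = 0.974). The PLX5622 dependent values alone spanned nearly the whole CeA range of Fezf2. Tbr1 had 47.6, 51.9, 76.1 and 60.9 CPM in PLX5622 and 32.2 to 68.2 (median 49.2) CPM in control non-dependent CeA (0.28 ± 0.18, adjusted p = 0.698), and these groups overlapped too. Bcl11b leaned the other way and had the lowest adjusted p of the 9 in this comparison. It had 248, 212, 199 and 195 CPM in PLX5622 and 187 to 306 (median 260.2) CPM in control non-dependent CeA, again with overlap (-0.22 ± 0.11, adjusted p = 0.572). Without the library of mouse 15 this was -0.29 (adjusted p = 0.1696), the lowest adjusted p of any of the 9 within a region under any setting.

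Across the 9 genes, 8 diet differences lay above 0 in dependent CeA (median 0.21; all genes 0.0012) and 5 in non-dependent CeA (median 0.093; all genes -0.0056). In mPFC the medians were -0.024 in dependent and -0.030 in non-dependent mice. The mPFC values bound what could have been missed for the abundant genes. Slc17a7 differed by -0.070 ± 0.045 in dependent mice (95% interval -0.16 to 0.018) and by -0.061 ± 0.048 in non-dependent mice (-0.16 to 0.034). Mef2c differed by -0.035 ± 0.044 in dependent mice (-0.12 to 0.051) and by -0.038 ± 0.047 in non-dependent mice (-0.13 to 0.055). In CeA the intervals were wider, reaching -0.35 to 1.20 for Fezf2 in dependent mice. Of the 30 other cortical genes, Sox5 alone was called within a region, higher with PLX5622 in non-dependent CeA (0.35 ± 0.089, adjusted p = 0.0405).

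**Figure D3:**
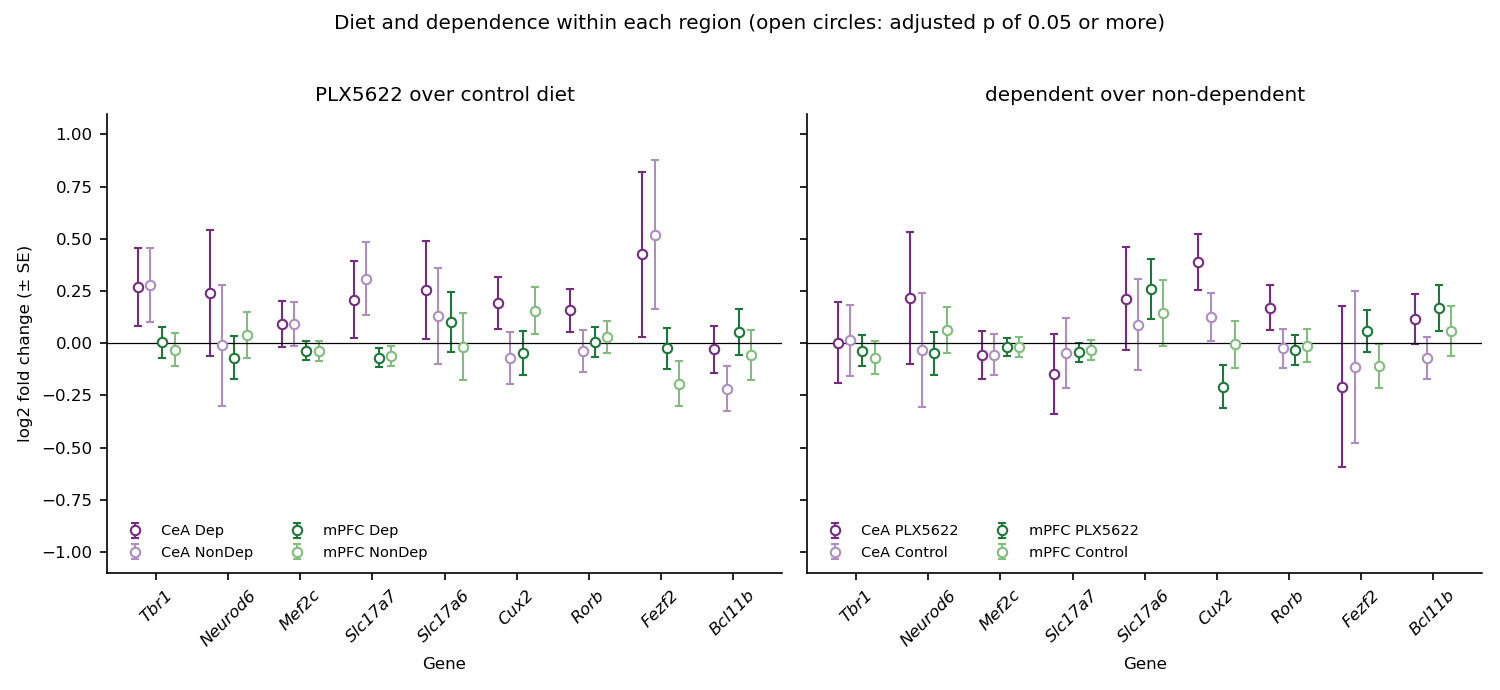
Log2 fold change (± SE) of the 9 genes for PLX5622 over control diet and for dependent over non-dependent mice, within CeA and within mPFC. Every point is open, since none had an adjusted p under 0.05, and the bars are longer in CeA than in mPFC for most genes.

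Dependent mice were set against non-dependent mice within each region and diet, and none of the 9 genes was called. Of all genes, 0.0171% were called in CeA with PLX5622, 0.00853% in CeA with control diet, 0% in mPFC with PLX5622 and 0.00811% in mPFC with control diet. At an unadjusted p under 0.05 these shares were 5.95%, 6.12%, 5.9% and 5.9%. DESeq2 called none of the 9 in these comparisons. Of the 72 differences by diet or dependence within a region, 1 had an unadjusted p under 0.05, that of Cux2 in CeA with PLX5622. Cux2 had 74.1, 67.8, 74.7 and 63.2 CPM in dependent and 49.8, 45.4, 65.2 and 53.7 CPM in non-dependent mice on PLX5622. The groups overlapped in 1 library. Dependent over non-dependent, the log2 fold change was 0.39 ± 0.13 (SE, adjusted p = 0.636). On control diet Cux2 differed by 0.13 ± 0.11 in CeA, and in mPFC by -0.21 ± 0.10 with PLX5622 and -0.0059 ± 0.11 with control diet. The median over the 9 genes was 0.12 in CeA with PLX5622, -0.033 in CeA with control diet, -0.034 in mPFC with PLX5622 and -0.011 in mPFC with control diet.

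Whether an effect differed between conditions was tested as such. The effect of diet did not differ past the threshold between dependent and non-dependent mice for any of the 9 genes in CeA (0% of all genes called, 4.56% with an unadjusted p under 0.05) or mPFC (0% and 2.85%). None of the 9 was called for a different effect of diet in CeA than in mPFC either, against 0.0537% of all genes. At an unadjusted p under 0.05, 3 of the 9 passed, against 8.41% of all genes. Slc17a7 came closest, with a diet effect higher in CeA by 0.33 ± 0.10 on the log2 scale (adjusted p = 0.257), and DESeq2 gave it an adjusted p of 0.0419. Fezf2 (0.59 ± 0.23, adjusted p = 0.454) and Tbr1 (0.29 ± 0.14, adjusted p = 0.571) were the other two. For an effect of dependence that differs between regions, 0% of all genes were called by edgeR, 5.28% had an unadjusted p under 0.05, and 1 of the 9 did, Cux2 (0.37 ± 0.14, adjusted p = 0.905).

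Libraries of the same group differed more in CeA than in mPFC for 7 of the 9 genes, by the SD of log2(CPM + 1) within groups. The share of all genes with this order was not taken, so the count does not set the 9 genes apart. The exceptions were Cux2 (0.20 in CeA and 0.22 in mPFC) and Bcl11b (0.19 and 0.24). Fezf2 varied most in CeA, with an SD of 0.57 where counting noise at its depth would give 0.26. Neurod6 had 0.44 against 0.16 from counting, and Slc17a7 0.28 against 0.073. Rorb in CeA (0.15 against 0.12) and Slc17a6 in mPFC (0.31 against 0.27) were little above counting noise. These SDs include counting noise, which goes with depth. For Rorb they were 0.153 in CeA and 0.148 in mPFC, where counting would give 0.119 and 0.069.

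To see which of the 9 genes vary together beyond the groups, each library's log2(CPM + 1) less its group mean was correlated within a region. The p-values come from 100000 permutations of libraries within groups, where 1e-05 is the smallest they can give, and are adjusted over the 36 pairs of genes of a region. Each r was taken again without the 2 libraries farthest from the median of the first gene. No such p-values were taken for other genes, so counts of called pairs do not set the 9 genes apart.

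In mPFC, 8 of the 36 pairs had an adjusted p under 0.05 for r, 6 positive and 2 negative. The deep-layer and pallial factors formed a set. Tbr1 and Fezf2 had r = 0.74 and rho = 0.72 (permutation p = 5.00e-05 and 1e-05, adjusted p = 0.000432 and 0.000180), and r = 0.57 without 2 libraries. Fezf2 and Neurod6 had r = 0.65 and rho = 0.64 (permutation p = 3.00e-05 and 0.000140, adjusted p = 0.000432 and 0.00101), and r = 0.57 without 2 libraries. Tbr1 and Neurod6 had r = 0.59 and rho = 0.61 (permutation p = 0.000220 and 0.000270, adjusted p = 0.00113 and 0.00162), and r = 0.44 without 2 libraries. Mef2c varied with Cux2 and with Rorb, markers of upper and middle layers that were not called with each other. Mef2c and Cux2 had r = 0.65 and rho = 0.59 (permutation p = 6.00e-05 and 0.000390, adjusted p = 0.000432 and 0.00201), and r = 0.49 without 2 libraries. Mef2c and Rorb had r = 0.62 and rho = 0.67 (permutation p = 1.00e-04 and 6.00e-05, adjusted p = 0.000600 and 0.000540), and r = 0.51 without 2 libraries. Bcl11b was not called with Rorb, but ran against Mef2c and Cux2. With Mef2c it had r = -0.71 and rho = -0.72 (permutation p = 1e-05 and 1e-05, adjusted p = 0.000360 and 0.000180), and r = -0.61 without 2 libraries. With Cux2 it had r = -0.67 and rho = -0.67 (permutation p = 6.00e-05 and 5.00e-05, adjusted p = 0.000432 and 0.000540), and r = -0.59 without 2 libraries. The last pair, Mef2c and Neurod6, had r = 0.49 and rho = 0.30 (permutation p = 0.00842 and 0.105, adjusted p = 0.0379 and 0.252), and r = 0.28 without 2 libraries, so it rests on those libraries. Without the library of mouse 38, 7 pairs were called, Mef2c and Cux2 had r = 0.49 and Mef2c and Neurod6 r = 0.30. Without the libraries holding spike-in RNA, the pairs of Mef2c with Cux2 (r = 0.42, permutation adjusted p = 0.0992) and Rorb (r = 0.47, permutation adjusted p = 0.0992) were no longer called. Mef2c with Neurod6 was not called then either, while the other 5 pairs were.

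In CeA, 2 of the 36 pairs were called. Mef2c and Slc17a7 had r = 0.81 and rho = 0.76 (permutation p = 0.000270 and 0.00170, adjusted p = 0.00972 and 0.0349), and r = 0.76 without 2 libraries. Cux2 and Rorb had r = 0.68 and rho = 0.68 (permutation p = 0.00184 and 0.00194, adjusted p = 0.0331 and 0.0349), and r = 0.59 without 2 libraries. Among the 12 CeA libraries used when those with spike-in RNA were left out, neither was called: Mef2c and Slc17a7 had r = 0.73 (permutation adjusted p = 0.3996) and Cux2 and Rorb r = 0.66 (permutation adjusted p = 0.3996).

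**Figure D4:**
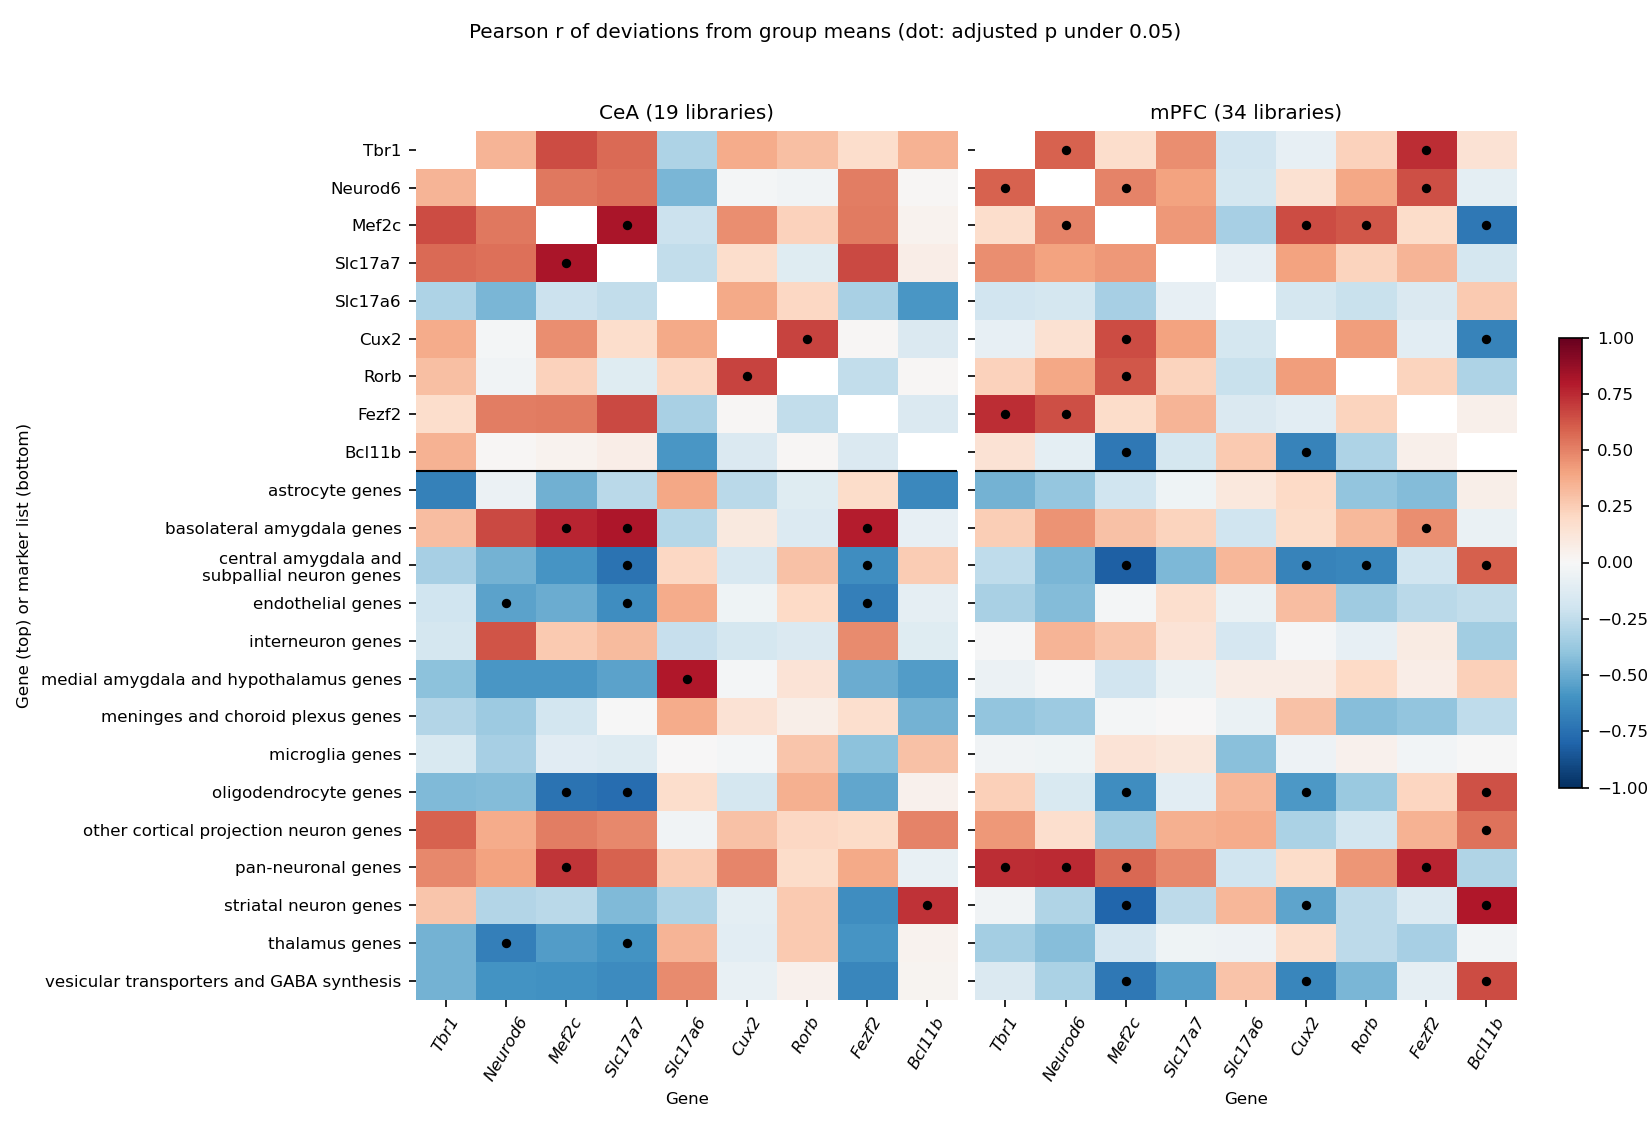
Pearson r of deviations from group means for the 9 genes among themselves (top) and against 14 gene lists (bottom), in 19 CeA and 34 mPFC libraries. Dots mark an adjusted p under 0.05, held by 2 of 36 gene pairs in CeA and 8 of 36 in mPFC.

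The 9 genes also varied with marker lists of other structures and cell types, taken as the mean log2(CPM + 1) of each list, in 15 of 126 pairs in CeA and 19 of 126 in mPFC. Without the libraries holding spike-in RNA, 0 of the 15 CeA calls and 12 of the 19 mPFC calls were kept, all with the same sign. The lowest adjusted p of the 15 in CeA was then 0.0945. Leaving out the CeA library of mouse 15 kept 10 of the 15 CeA calls and lost 5. Leaving out the mPFC library of mouse 38 kept 17 of the 19 mPFC calls and lost 2. All signs stayed the same. In CeA Slc17a7 followed the basolateral amygdala list, with r = 0.81 and rho = 0.83 (permutation p = 0.000160 and 0.000210, adjusted p = 0.0101 and 0.0132), and r = 0.76 without 2 libraries. It ran against the central amygdala and subpallial list, with r = -0.74 and rho = -0.73 (permutation p = 0.000620 and 0.00139, adjusted p = 0.0130 and 0.0292), and r = -0.81 without 2 libraries. Its lowest r of all lists was that with oligodendrocyte genes, r = -0.76 and rho = -0.76 (permutation p = 0.000120 and 0.000340, adjusted p = 0.0101 and 0.0143), and r = -0.72 without 2 libraries. Fezf2 followed the basolateral list with r = 0.78 and rho = 0.85 (permutation p = 0.000610 and 0.000190, adjusted p = 0.0130 and 0.0132), and r = 0.78 without 2 libraries. Mef2c did so with r = 0.77 (permutation adjusted p = 0.0194), though its rho of 0.69 had an adjusted p of 0.0591. Without the libraries holding spike-in RNA the basolateral calls were lost for Slc17a7 (r = 0.81, permutation adjusted p = 0.139), Fezf2 (r = 0.76, permutation adjusted p = 0.223) and Mef2c (r = 0.76, permutation adjusted p = 0.163). Over all libraries and within groups, CeA libraries with more Slc17a7 had more of the basolateral and less of the oligodendrocyte genes, and whether the punches held more basolateral tissue or less white matter was not tested.

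Slc17a6 was called with 1 list in CeA, that of the medial amygdala and hypothalamus, with r = 0.80 and rho = 0.74 (permutation p = 0.00123 and 0.00247, adjusted p = 0.0194 and 0.0346), and r = 0.68 without 2 libraries. The library of mouse 15 had the highest level of both, and without it r was 0.70 and the permutation adjusted p 0.0869. Without the libraries holding spike-in RNA r was 0.74 (permutation adjusted p = 0.163). Its r with Slc17a7 was -0.24 (permutation p = 0.393, adjusted p = 0.615). The medial amygdala and hypothalamus genes were near the floor in CeA, so their list rests on few counts. Over all 19 CeA libraries Sim1 had 66 counts, Ucn3 65, Otp 42, Lhx5 11 and Nr5a1 3.

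Bcl11b followed the striatal list in both regions. In mPFC it had r = 0.80 and rho = 0.79 (permutation p = 1e-05 and 1e-05, adjusted p = 0.000420 and 0.000945), and r = 0.75 without 2 libraries. In CeA it had r = 0.72 and rho = 0.70 (permutation p = 0.00567 and 0.00298, adjusted p = 0.0476 and 0.0366), and r = 0.70 without 2 libraries. The CeA call was lost without the libraries holding spike-in RNA (r = 0.78, permutation adjusted p = 0.139) and without the library of mouse 15. The CeA value without the library of mouse 15 was r = 0.64 (permutation adjusted p = 0.0869), and the mPFC value without that of mouse 38 was r = 0.77 (permutation adjusted p = 0.00210). Mef2c ran against the striatal list in mPFC, with r = -0.79 and rho = -0.69 (permutation p = 2.00e-05 and 2.00e-05, adjusted p = 0.000420 and 0.000945), and r = -0.67 without 2 libraries. Its lowest r of all lists in mPFC was that with the central amygdala and subpallial list, r = -0.81 and rho = -0.70 (permutation p = 1e-05 and 4.00e-05, adjusted p = 0.000420 and 0.00101), and r = -0.68 without 2 libraries. Tbr1, Fezf2 and Neurod6 followed the pan-neuronal list in mPFC, Neurod6 with r = 0.75 and rho = 0.70 (permutation p = 1e-05 and 3.00e-05, adjusted p = 0.000420 and 0.000945), and r = 0.64 without 2 libraries.

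Oligodendrocyte genes also moved with these genes in mPFC. Bcl11b had r = 0.63 and rho = 0.66 (permutation p = 0.000170 and 8.00e-05, adjusted p = 0.00178 and 0.00144), and r = 0.53 without 2 libraries with their list. Mef2c ran against it, with r = -0.62 and rho = -0.66 (permutation p = 0.000230 and 5.00e-05, adjusted p = 0.00223 and 0.00105), and r = -0.50 without 2 libraries. Cux2 did so with r = -0.57 (permutation adjusted p = 0.0129), though its rho of -0.47 had an adjusted p of 0.0524. In CeA Mef2c had r = -0.74 and rho = -0.67 (permutation p = 0.000250 and 0.00225, adjusted p = 0.0105 and 0.0346), and r = -0.69 without 2 libraries. The part of oligodendrocytes in these relations was not tested.

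**Figure D5:**
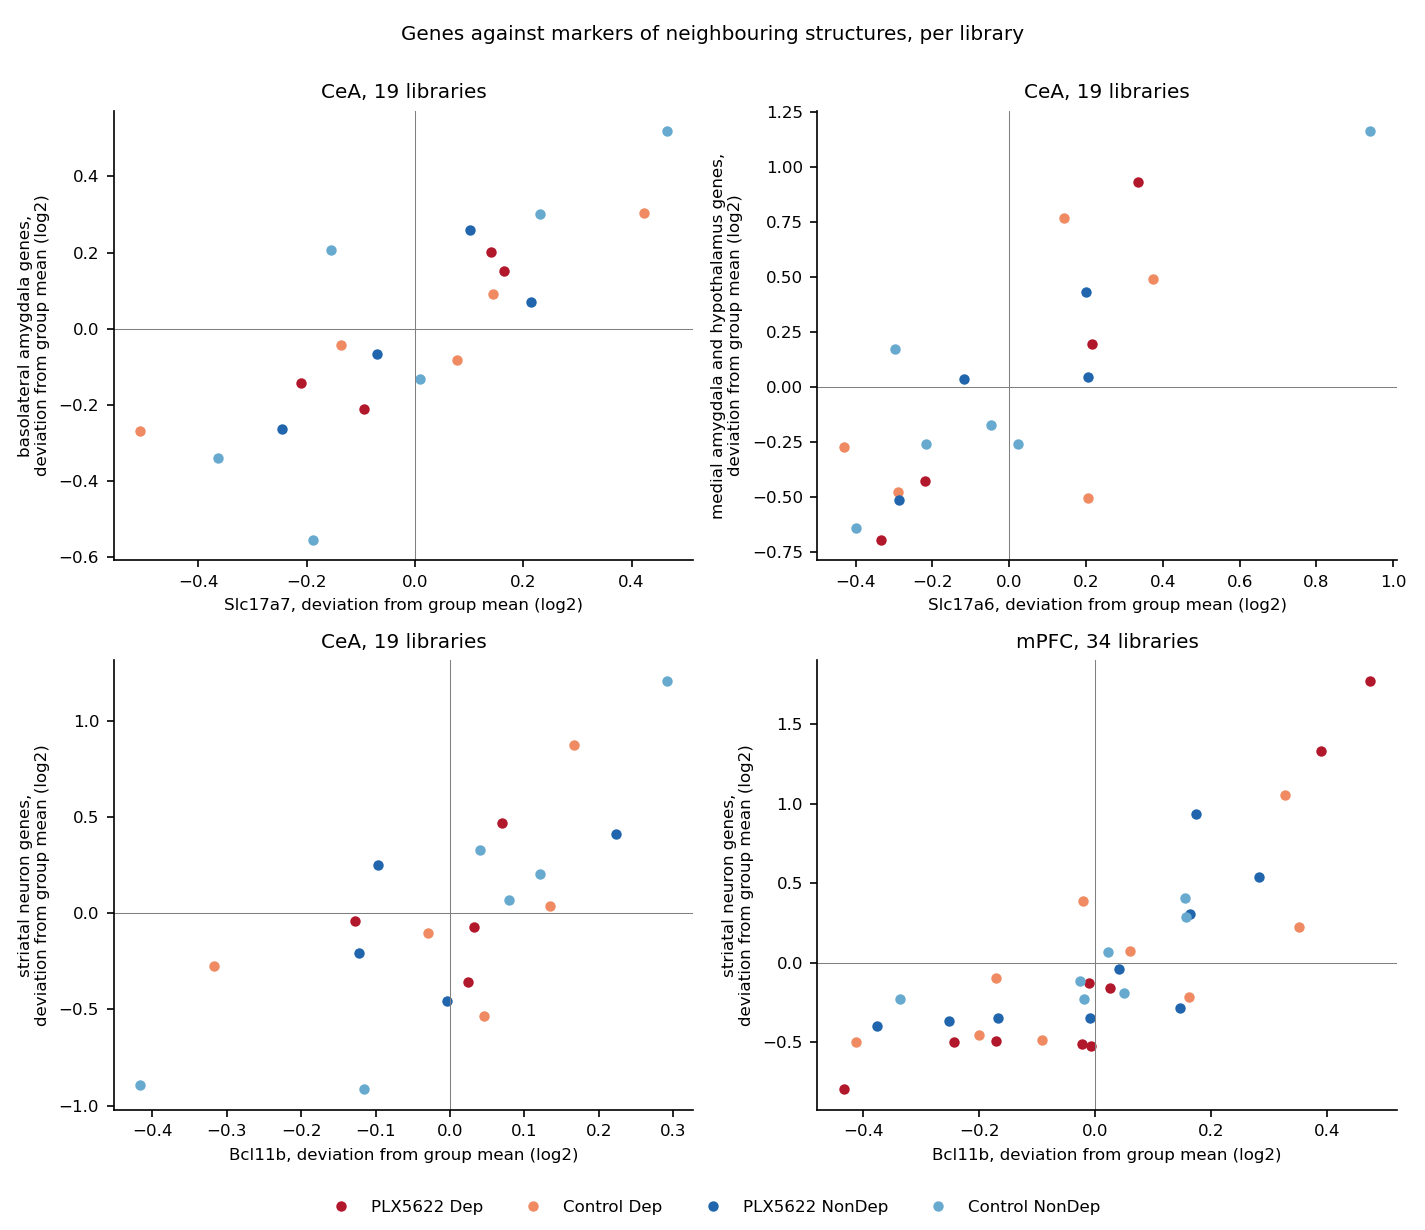
Deviations of log2(CPM + 1) from group means, 1 point per library coloured by condition: Slc17a7 and Slc17a6 in CeA against lists of basolateral amygdala and of medial amygdala and hypothalamus, and Bcl11b against striatal genes in CeA and mPFC. All 4 panels slope upward, with r of 0.72 to 0.81.

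Among all 11721 genes tested in CeA and 12331 in mPFC, the 3 whose deviations were most like those of each of the 9 were listed as a description. In CeA Slc17a7 was most like Dyrk2 (r = 0.95), Pls3 (r = 0.91) and Hpcal4 (r = 0.89) over 19 libraries. Slc17a6 was most like Aplp2, Rnf227 and Ahi1 there, with r of 0.83 to 0.91. In mPFC Bcl11b was most like Pcdh17 (r = 0.89), Rgs9 (r = 0.83) and Tac1 (r = 0.82) over 34 libraries, of which Rgs9 and Tac1 are in the striatal list. Elavl4 was among the 3 of both Tbr1 and Neurod6 in mPFC, and Car10 among those of both Mef2c and Cux2.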

How the data were processed

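The authors deposited counts: integers per Ensembl gene, 1 file per library, not normalized. Per the submitters' processing notes, HTSeq 0.11.0, Bowtie2 2.3.4.3, FastQC 0.11.8, R 3.5.1 and DESeq2 1.10.1 were used with mm10 (GRCm38.p6); settings were not given in the sources used here. Spike-in entries and reads outside genes were left out; genes held 71.6% to 73.4% of reads in CeA and 74.1% to 75.5% in mPFC. CPM was computed here from those deposited counts.

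Tests were edgeR 4.0.16 (R 4.3.3) two-sided quasi-likelihood F tests, robust, with TMM factors and filterByExpr (minimum count 10, minimum total 15). The 4 groups of a region were fitted together (11721 genes in CeA, 12331 in mPFC), and all 8 groups for comparisons between regions (13035 genes). Calls need a Benjamini-Hochberg adjusted p under 0.05 over all genes tested. SE is the log2 fold change divided by the root of F, and 95% intervals span 1.96 SE. The code was tested on simulated data. Precision is limited by depth and by 4 to 9 libraries a group, and p-values measure the spread between these mice.

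Alternatives were DESeq2 1.42.0, its size factors in edgeR, no filter, only the groups compared, no spike-in libraries, leaving out libraries, a pseudocount of 0.25 in place of 1, and mouse as a block. Leaving out mouse 15 or 38 in the correlations, or the spike-in libraries in those with lists, or mouse 38 in the comparisons of regions, was chosen after seeing the data. Replicates carry the labels' mouse numbers; 15 numbers pair libraries of equal diet and history across regions, as the protocol took both regions from each brain. Number 16 has different diets in the regions and was not paired. Deviations of paired libraries correlated over genes with r = -0.0355 to 0.0791 (median 0.0165). All 9 genes are named; of other cortical genes, the 4 highest and 4 lowest among those called in all 4 comparisons of regions, apart from a gene that is not reported here; and the 3 genes most like each of the 9 were taken from all genes. The 9 genes and the lists were chosen with earlier results of these data known.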

Additional observations from a re-analysis of the deposited data

Results flagged for a closer look

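In groups of 4 to 10 libraries, 5 of the 72 combinations of gene and group held 1 library far from the others by Dixon's ratio on log2(CPM + 1), where chance alone gives about 1 in 20 groups. The mPFC library of mouse 38 accounted for 2 of them, and it was the lowest of its group for 7 of the 9 genes. Slc17a7 was at 213 CPM there, against 268 to 284 CPM in the other 8 PLX5622 dependent mPFC libraries. Cux2 was at 75.6 CPM in the same library, against 102.1 to 131 CPM. This library also had the highest striatal sum of its group (2406 CPM) and the highest central amygdala and subpallial sum (1242 CPM), and it is one of those holding spike-in RNA; their part was not tested.

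Slc17a6 was at 72.4 CPM in the CeA library of mouse 15, against 28.0 to 37.9 CPM in the other control non-dependent CeA libraries. The summed medial amygdala and hypothalamus genes of this library, 22.5 CPM, were the highest of all CeA libraries, and their part was not tested. Fezf2 was at 27.2 CPM in the mPFC library of mouse 21, against 47.5 to 57.6 CPM in the other PLX5622 non-dependent mPFC libraries. That library also had the lowest pan-neuronal sum of its group (7756 CPM) and the highest thalamus sum (878 CPM). Bcl11b was at 128 CPM in the mPFC library of mouse 34, against 159.6 to 181 CPM in the other control non-dependent mPFC libraries.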

How the results depend on the processing

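Of 473 counts of called genes under alternative settings, 472 equalled or stayed within 1.5 times the reported count. The exception was the difference of the diet effect between regions, where DESeq2 called 1 of the 9 genes in place of 0. Without the spike-in libraries, the pairs of the 9 genes with an adjusted p under 0.05 numbered 0 in CeA in place of 2, and 5 in mPFC in place of 8, and pairs with marker lists 0 in CeA in place of 15. The cause was not tested, and these fits hold fewer libraries. Of 944 alternative fold changes for gene and comparison pairs called under any setting, 935 kept direction and side of the threshold, 7 lost the call, 2 gained one and 0 changed sign. All called pairs of gene and region comparison but those of Bcl11b in dependent mice and Slc17a7 in PLX5622 non-dependent mice (30 of 33) held under every alternative. Within a region no gene was called under any setting, the lowest adjusted p was 0.1696, and 158 of 2817 values had the opposite sign. With mouse as a fixed replicate block over the 15 pairs, Slc17a7 in PLX5622 non-dependent mice had an adjusted p of 0.111, and with mouse as a random block (limma 3.58.1, correlation 0.0323) of 0.0443. The block changed no other call of the 9 genes. In comparisons of regions, the libraries left out singly were the 19 of CeA and, in mPFC, that of mouse 38 alone. Among the 9 genes, depth limits Slc17a6 in mPFC and Fezf2 in CeA most, with means of 28.3 and 31.2 counts per library.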
